A study of Mus musculus with 4 samples.

Results

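Receptors for lipid mediators and for extracellular acid were examined in CD4 T cells sorted from the large intestine of mice. The set held 9 genes, taken by name from the 18193 genes on the array: Ltb4r1, Ptger2, Ptger4, S1pr1, S1pr4, Gpr183, Gpr18, Gpr65 and Gpr132. Each gene was read from its brightest probe set that carried a single gene symbol. All 9 lay above the signal floor used for testing, which 12252 genes of the array passed. The mice had a mixed 129/B6 background and were all heterozygous for a GFP knock-in at the Gpr15 locus, so every sample, the GFP-negative ones included, carried 1 modified Gpr15 allele. Lamina propria cells were released with collagenase and CD4+ T cells were sorted into GFP- and GFP+ fractions, 2 arrays per fraction, numbered replicate 1 and replicate 2. GFP marks activity of the Gpr15 locus, not the receptor on the cell surface, and the labels name no treatment. The labels give neither the age nor the number of mice per sample, so p-values measure the spread between these samples only.

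These receptors belong to the large class of G protein-coupled receptors and report on small molecules made locally in inflamed or lymphoid tissue. Leukotrienes and prostaglandins are made from arachidonic acid of cell membranes, and sphingosine phosphate is abundant in lymph and blood. Oxysterols are made from cholesterol by stromal cells, and protons accumulate where tissue metabolism is high. In T cells such receptors guide migration and egress when they couple to inhibitory G proteins, and raise cyclic AMP, a brake on T cell activation, when they couple to stimulatory G proteins. The comparison asks whether colonic CD4 T cells with an active Gpr15 locus carry a different set of them from those without.

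Ltb4r1 and Gpr65 had higher signals and Gpr18 lower signals in GFP-positive cells, and the intervals of the other 6 receptors included 0. None of the 9 passed the test over all genes (given after the check of the sort). The proximal promoters of these 3 genes are shown here because they are the members whose groups stood furthest apart. Each runs from 250 bases before to 50 bases after the annotated gene start, 5′ to 3′ on the gene's strand, from RefSeq on GRCm38.p6. Capitals mark the RUNX core TGTGGT and the CCAAT box CCAAT, each on either strand. Other motifs were searched as well and are not marked. The Ltb4r1 window is chr14:55765712-55766011 on the plus strand, the Gpr65 window chr12:98268385-98268684 on the plus strand and the Gpr18 window chr14:121915839-121916138 on the minus strand.
Ltb4r1: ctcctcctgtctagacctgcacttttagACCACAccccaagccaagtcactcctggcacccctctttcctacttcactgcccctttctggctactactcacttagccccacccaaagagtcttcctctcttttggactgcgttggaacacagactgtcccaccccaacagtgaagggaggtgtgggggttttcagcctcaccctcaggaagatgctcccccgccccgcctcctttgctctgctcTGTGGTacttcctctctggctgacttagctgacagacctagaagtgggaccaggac
Gpr65: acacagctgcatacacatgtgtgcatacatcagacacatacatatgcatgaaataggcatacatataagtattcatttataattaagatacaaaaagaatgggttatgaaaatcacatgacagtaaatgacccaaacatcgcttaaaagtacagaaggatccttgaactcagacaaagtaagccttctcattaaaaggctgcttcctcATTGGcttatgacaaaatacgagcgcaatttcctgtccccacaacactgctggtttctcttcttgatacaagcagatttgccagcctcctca
Gpr18: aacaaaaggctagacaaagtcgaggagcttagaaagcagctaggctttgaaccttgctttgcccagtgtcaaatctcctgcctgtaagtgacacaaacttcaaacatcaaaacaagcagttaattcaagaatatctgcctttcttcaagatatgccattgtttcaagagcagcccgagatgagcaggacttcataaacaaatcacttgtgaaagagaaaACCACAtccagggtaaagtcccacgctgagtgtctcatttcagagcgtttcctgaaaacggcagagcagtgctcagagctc

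The Ltb4r1 window held the RUNX core at 2 places, starting 222 and 6 bases before the gene start, and the Gpr18 window held it at 1 place, 31 bases before the start. The Gpr65 window held no RUNX core and a reversed CCAAT box 42 bases before the start. Among all 32851 promoter windows of this length, 16.8% held the RUNX core and 37.4% the CCAAT box. Of the 8 receptors with a promoter entry, 3 held the RUNX core (Gpr132, Gpr18 and Ltb4r1) and 3 the CCAAT box (Gpr65, Ptger2 and Ptger4). The RUNX core thus lay in a promoter of a gene with a higher signal and in that of a gene with a lower signal. These matches describe the letters of the windows and do not show binding.

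The sort was checked first. Gpr15 gave signals of 146 and 162 in GFP-negative cells, against 619 and 729 in GFP-positive cells, without overlap, and a log2 difference of 2.02 (1.48 to 2.56, adjusted p = 0.0829 in limma). The series text in 1 place writes the GFP-negative population as lacking CD4, but Cd4 gave signals of 501 and 587 in it, against 540 and 533 in GFP-positive cells. The Cd3e difference was -0.16. Of 7 CD4 T cell markers on the array all were tested, and their signals summed to 15305 and 14994 in GFP-negative cells, against 13934 and 12728 in GFP-positive cells. Markers of macrophages and monocytes were dim, with 5 of 9 above the floor. Their summed signal was 160 and 302 on the GFP-negative arrays, 214 on GFP-positive replicate 1 and 1307 on GFP-positive replicate 2, where C1qb alone gave 700. Epithelial markers summed to 430 and 502 on the GFP-negative arrays and to 1559 and 396 on GFP-positive replicates 1 and 2. Of the 6 tested, 5 overlapped between groups and 1, Epcam, was higher without overlap, beside 28.7% of all genes. Epcam gave 72.3 and 42.5 in GFP-negative cells, against 246 and 175 in GFP-positive cells, and was chosen after its values were seen. B and plasma cell markers summed to 3966, 4633, 6473 and 4332 in that order of arrays, of which the plasma cell gene Jchain gave 3852 to 6219. The summed signals of dendritic cell markers were 446, 715, 833 and 1348, of granulocyte and mast cell markers 191, 174, 230 and 419, of stromal and endothelial markers 421, 1003, 610 and 934, and of the CD8 genes 76.9, 61.4, 64.4 and 84.7. The brightest of these lists were Cd74 (126, 373, 365 and 690), Kit, Col1a1 (114, 546, 243 and 419) and Cd8a (32.5, 42.5, 52.1 and 60.2), and Cdh1 of the epithelial list (122, 129, 424 and 63.9). No marker was at a signal of 0 on any array. Tested CD4 T cell markers had a median difference of -0.16, next to 0.07 over all tested genes, and 4 of 7 were lower without overlap (18.7% of all genes). The medians were 0.47 for B and plasma cells, 0.81 for macrophages and monocytes, and 0.78 for dendritic cells. They were 1.01 for granulocytes and mast cells, 0.41 for epithelial and 0.31 for stromal and endothelial cells. The part of these cell types in the receptor differences was not tested. Xist, which is transcribed from the silenced X, was bright in both samples numbered 1 (4172 and 4313) and dim in both numbered 2 (55.1 and 112). The Y-linked gene Eif2s3y was the reverse, so sex and replicate number cannot be told apart.

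**Figure D1:**
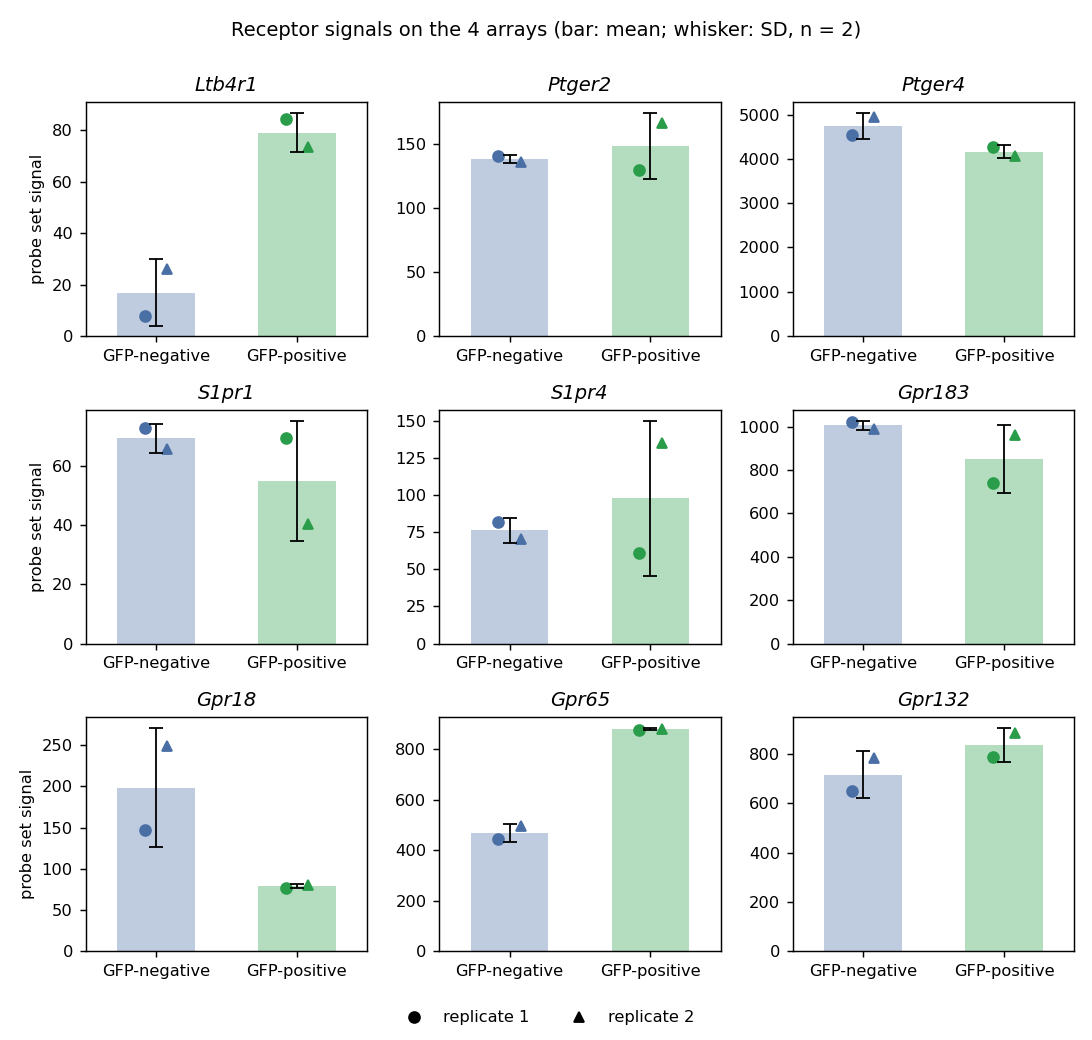
Deposited signal (linear probe set intensity, vertical axes from 0) of each receptor gene on the 2 GFP-negative and 2 GFP-positive arrays. Points are arrays (circle, replicate 1; triangle, replicate 2), bars are group means and whiskers are SD. Ltb4r1 and Gpr65 lie higher on both GFP-positive arrays and Gpr18 lower, while the 2 GFP-positive points of S1pr4 are the lowest and the highest of its 4.

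In the limma fit the adjusted p of the 9 ran from 0.181 to 0.901, and 0 of 9 were called at an adjusted p under 0.05, where 4 of 12252 genes were called (0.0326%). At an unadjusted p under 0.05 there were 3 of 9, Ltb4r1, Gpr65 and Gpr18, beside 14.6% of all genes. Both GFP-positive arrays lay above both GFP-negative arrays for 3 receptors (28.7% of all genes) and below them for 3 (18.7%), and the groups of 3 overlapped. With a difference of at least 2-fold there was 1 receptor higher (3.4% of all genes) and 1 lower (1.31%). The higher receptor was Ltb4r1, which the counts above also hold. Both its GFP-negative values lay under the floor, so it was tested because of its GFP-positive level. With a pseudocount of 64 its log2 difference was 0.83. The median difference of the receptors was 0.08 on the log2(signal + 16) scale, next to 0.07 over all tested genes, so the set had no common direction. On that scale the addition of 16 understates the change of dim genes. Median scaling of each array moved the median of all genes to -0.20 and the shares without overlap to 13.2% higher and 40.2% lower. Because the samples are bulk RNA of sorted cells, fewer cells with a transcript and less transcript per cell cannot be told apart.

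Ltb4r1 encodes the high-affinity receptor for leukotriene B4, a chemoattractant of granulocytes and activated T cells. It gave signals of 7.58 and 26.0 in GFP-negative cells, against 84.5 and 73.7 in GFP-positive cells. The lowest GFP-positive array lay well above the highest GFP-negative one. The means were 16.8 ± 13.1 and 79.1 ± 7.68 (SD, n = 2 each), and the log2 difference was 1.59 (95% interval 0.79 to 2.39, adjusted p = 0.181). Replicate 1 alone gave a difference of 2.09 and replicate 2 alone 1.09, and with a pseudocount of 1 and of 64 it was 2.39 and 0.83. Both GFP-negative values lay under the testing floor of 27.3, so the gene was tested because of its level in GFP-positive cells and the size of its difference is set in part by the pseudocount. Granulocytes and macrophages also express this receptor. Its signal was highest on GFP-positive replicate 1, where macrophage and monocyte markers summed to 214, and granulocyte and mast cell markers to 230. On GFP-negative replicates 1 and 2 and GFP-positive replicate 2 these sums were 160, 302 and 1307 for the former and 191, 174 and 419 for the latter. The difference was 1.67 without GFP-positive replicate 2, and the part of other cell types in it was not tested.

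Receptors that raise cyclic AMP did not share a direction. Gpr65, a receptor of the stimulatory G protein that responds to acid, gave signals of 445 and 495 in GFP-negative cells, against 878 and 882 in GFP-positive cells. The groups were far apart compared with the spread within each. The log2 difference was 0.88 (0.37 to 1.40, adjusted p = 0.216). Replicate 1 alone gave 0.96 and replicate 2 alone 0.81, and the pooled difference was 0.57 under median scaling. Without GFP-positive replicate 2 the difference was 0.88.

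Ptger4, the prostaglandin E2 receptor EP4, gave signals of 4535 and 4951 in GFP-negative cells, against 4261 and 4054 in GFP-positive cells. The GFP-positive arrays were lower without overlap, by a margin smaller than the spread within the GFP-negative pair. The log2 difference was -0.19 (-0.70 to 0.33, adjusted p = 0.725), and replicates 1 and 2 alone gave -0.09 and -0.29. A dimmer probe set of Ptger4 differed by -0.29, with signals from 118 to 195 that overlapped between groups. Ptger2, the prostaglandin E2 receptor EP2, gave signals of 140 and 136 in GFP-negative cells, against 130 and 166 in GFP-positive cells. Here the GFP-negative arrays fell between the GFP-positive ones. Its log2 difference was 0.08 (-0.47 to 0.64), and replicates 1 and 2 alone gave -0.10 and 0.27. It turned to -0.20 under median scaling and to -0.079 without GFP-positive replicate 2. As reported, the intervals of both prostaglandin receptors leave out a difference of 2-fold in either direction, but under median scaling that of Ptger4 (-1.03 to 0.02) includes 2-fold lower.

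Gpr132 is grouped with the acid-sensing receptors and responds to oxidised fatty acids. It gave signals of 649 and 782 in GFP-negative cells, against 786 and 883 in GFP-positive cells. The groups touched without overlapping, since 782 and 786 are neighbours. The log2 difference was 0.22 (-0.33 to 0.77, adjusted p = 0.699), and replicates 1 and 2 alone gave 0.27 and 0.17. It turned to -0.093 under median scaling. A dimmer probe set had signals of 31.3 and 59.7 against 72.0 and 36.3, which overlap, and differed by 0.18. The other acid sensors on the array, Gpr4, Asic1 and Asic3, were all under the floor, with signals of at most 14.0.

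**Figure D2:**
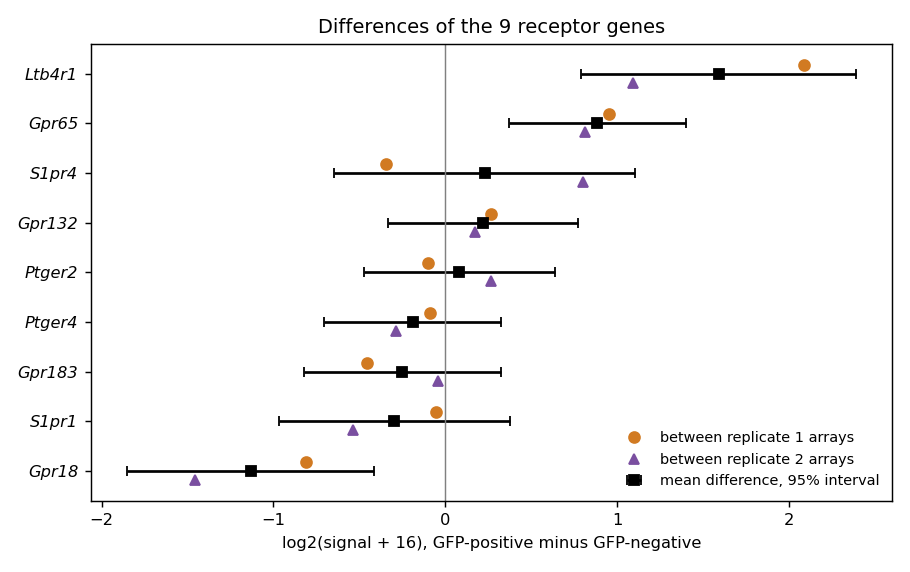
Difference between GFP-positive and GFP-negative cells for the 9 receptor genes on the log2(signal + 16) scale (horizontal axis). Squares are mean differences with 95% intervals from the limma fit, circles and triangles are the differences between the arrays of replicate 1 and of replicate 2. The intervals of Ltb4r1, Gpr65 and Gpr18 leave out 0, and S1pr4 and Ptger2 have replicate differences on both sides of 0.

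The intervals of S1pr1, S1pr4 and Gpr183, grouped here as receptors that steer T cells through lymphoid tissue, included 0. The interval of Gpr18, which is described after them and is not of that group, left out 0. S1pr1, the sphingosine phosphate receptor that T cells need to leave lymphoid organs, gave signals of 72.8 and 66.0 in GFP-negative cells, against 69.4 and 40.5 in GFP-positive cells. GFP-positive replicate 1 fell within the GFP-negative pair and replicate 2 lay below it. The log2 difference was -0.30 (-0.97 to 0.37, adjusted p = 0.663), and replicates 1 and 2 alone gave -0.06 and -0.54. It was 0.0017 without GFP-positive replicate 2, so its size rests on that array. S1pr4, a sphingosine phosphate receptor largely restricted to blood cells, gave signals of 81.9 and 70.3 in GFP-negative cells, against 61.1 and 135 in GFP-positive cells. The GFP-positive arrays were the lowest and the highest of the 4. The differences within the replicate numbers were -0.35 and 0.80, and the pooled one was 0.23 (-0.65 to 1.11, adjusted p = 0.809). It turned to -0.25 without GFP-positive replicate 2, where macrophage markers summed highest, and to -0.037 under median scaling. The part of those markers in the S1pr4 signal was not tested.

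Gpr183, also called EBI2, is the oxysterol receptor that places lymphocytes at the edges of follicles and in colonic lymphoid structures. It gave signals of 1021 and 991 in GFP-negative cells, against 740 and 961 in GFP-positive cells. Both GFP-positive arrays were lower, replicate 2 by a small margin. The log2 difference was -0.25 (-0.82 to 0.32, adjusted p = 0.668), of which replicate 1 alone gave -0.46 and replicate 2 alone -0.04. A second probe set gave 376 and 425 against 324 and 380, which overlap, and a difference of -0.18.

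Gpr18 encodes a receptor reported to bind lipid ligands and known for supporting T cells of the intestinal epithelium. It gave signals of 147 and 249 in GFP-negative cells, against 77.3 and 80.7 in GFP-positive cells. The GFP-positive arrays were close to each other and below both GFP-negative arrays, which differed among themselves. The means were 198 ± 72.2 and 79.0 ± 2.46 (SD, n = 2 each) and the log2 difference was -1.13 (-1.85 to -0.41, adjusted p = 0.232). Only 112 of the 12252 genes had a lower value. Replicate 1 alone gave a difference of -0.81 and replicate 2 alone -1.46. It was -0.78 without GFP-negative replicate 2 and -1.48 without GFP-negative replicate 1.

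The receptor genes also share positions. Of the 9, 4 lie on chromosome 14 (Ltb4r1, Ptger2, Gpr18 and Gpr183) and 2 on chromosome 12 (Gpr65 and Gpr132). Gpr18 and Gpr183 are next to each other among coding genes, and the span of Ubac2, a gene of the endoplasmic reticulum, holds both in the RefSeq table. Ubac2 gave signals of 940 and 943 in GFP-negative cells, against 535 and 648 in GFP-positive cells, without overlap. Its log2 difference was -0.66 (-1.20 to -0.12, adjusted p = 0.284) and that of its other probe set was -0.92. Whether the Gpr18 or Gpr183 probe sets pick up Ubac2 RNA was not tested. Ltb4r1 lies beside Ltb4r2, the gene of the low-affinity leukotriene receptor, which is not analysed here, and S1pr4 beside the G protein gene Gna15.

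Other receptors for lipid mediators were read from a list of 36 genes, of which 29 were on the array and 20 were tested. None was called, 5 were higher and 4 lower without overlap (28.7% and 18.7% of all genes), and the median difference was 0.20. Under median scaling 1 was higher and 6 lower (13.2% and 40.2% of all genes) and the median was -0.05. The brightest were P2ry10 and Gpr174, receptors for lysophosphatidylserine, and Lpar6, a receptor for lysophosphatidic acid, with log2 differences of 0.10, 0.14 and -0.35. Ptafr, the receptor for platelet-activating factor, gave signals of 60.4 and 55.7 in GFP-negative cells, against 101 and 96.0 in GFP-positive cells and was chosen after its values were seen. The log2 difference was 0.63 (0.12 to 1.14, adjusted p = 0.282). Replicate 1 alone gave 0.61 and replicate 2 alone 0.64. Ptafr is also a receptor of myeloid cells, whose part in the difference was not tested. Its difference was 0.37 under median scaling and 0.19 with all its probe sets averaged.

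Enzymes and transporters of eicosanoids were often dim, and 10 of 19 genes on the array were tested. None was called, 4 were higher and 2 lower without overlap, or 1 and 2 under median scaling, and the median difference was 0.46, or 0.21 under that scaling. The shares of all genes were 28.7% and 18.7%, or 13.2% and 40.2% under median scaling, where the median over all tested genes was -0.20. Hpgds, the synthase of prostaglandin D2 in blood cells, gave signals of 64.3 and 79.3 in GFP-negative cells, against 191 and 231 in GFP-positive cells. The groups were separate on both replicate numbers, by 1.37 each, and the log2 difference was 1.37 (0.80 to 1.94, adjusted p = 0.149). Mast cells also express Hpgds. Their marker Kit had signals of 64.4, 26.5, 98.1 and 270 on GFP-negative replicates 1 and 2 and GFP-positive replicates 1 and 2. The mast cell genes Mcpt1, Cpa3 and Fcer1a did not follow Kit, and all were under the floor and not tested. Their log2 differences were -0.93, -0.26 and 0.029, against 1.63 for Kit. Mcpt1 was lower on both GFP-positive arrays, while the groups of Cpa3 and of Fcer1a overlapped. Without GFP-positive replicate 2 the Hpgds difference was 1.24, and the part of mast cells in it was not tested. Ptgs2, the inducible cyclooxygenase, gave signals of 46.4 and 173 in GFP-negative cells, against 185 and 496 in GFP-positive cells. The pairs barely separated and the log2 difference was 1.56 (-0.05 to 3.17, adjusted p = 0.351). Replicate 1 alone gave 1.68 and replicate 2 alone 1.44, and with the replicate number as a block the interval was 1.01 to 2.11 (adjusted p = 0.123 in limma). The difference was 0.88 without GFP-positive replicate 2, 0.76 without GFP-negative replicate 1, 2.36 without GFP-negative replicate 2 and 0.71 with all probe sets averaged. The brightest tested members were Lta4h, which makes leukotriene B4, and the exporter gene Abcc1, with differences of -0.28 and 0.44.

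No tested gene that makes or removes the other ligands reached 2-fold without overlap. Sphk1, a kinase that makes sphingosine phosphate, was under the floor and not tested, with signals of 8.37 and 4.65 in GFP-negative cells, against 52.2 and 17.1 in GFP-positive cells. It was chosen after its values were seen. Of 16 tested genes of sphingosine phosphate metabolism and transport none was called, 7 were higher and 3 lower without overlap (28.7% and 18.7% of all genes), and the median was 0.22. Under median scaling 2 were higher and 5 lower (13.2% and 40.2% of all genes) and the median was -0.06. The brightest, the ceramide synthase gene Cers6, the phosphatase gene Sgpp1 and the serine palmitoyltransferase gene Sptlc1, had log2 differences of -0.44, -0.23 and -0.15. Of 6 tested oxysterol genes none was called, 2 were higher and 0 lower without overlap (28.7% and 18.7% of all genes), and the median was 0.10. Quantile normalization gave 0 higher and 1 lower (23.1% and 21.2% of all genes). Median scaling gave 0 higher and 4 lower (13.2% and 40.2% of all genes) with a median of -0.19, next to -0.20 over all tested genes. Insig1, a sterol sensor, the sterol exporter gene Abcg1 and Insig2 had differences of -0.04, -0.08 and 0.13.

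Downstream of the receptors, the phosphodiesterases that degrade cyclic AMP included the genes of largest difference in their list. Of 20 tested genes of cyclic AMP signalling none was called, 5 were higher and 5 lower without overlap (28.7% and 18.7% of all genes), and the median was 0.09. Under median scaling 1 was higher and 9 lower (13.2% and 40.2% of all genes) and the median was -0.20. Pde3b gave signals of 1818 and 1491 in GFP-negative cells, against 282 and 543 in GFP-positive cells. Every GFP-positive value was far below the GFP-negative ones, and the log2 difference was -2.03 (-2.88 to -1.17, adjusted p = 0.151), or -2.62 in replicate 1 and -1.43 in replicate 2. Pde7a had signals of 961 and 779 against 392 and 432, again without overlap, and a log2 difference of -1.05 (-1.60 to -0.49, adjusted p = 0.187). All other probe sets of Pde7a above the floor were lower on both GFP-positive arrays, with differences from -1.33 to -0.67. Pde8a, chosen after its values were seen, gave signals of 745 and 615 in GFP-negative cells, against 1027 and 1016 in GFP-positive cells, and a difference of 0.58 (0.04 to 1.12, adjusted p = 0.325). It turned to -0.084 when all its probe sets were averaged. The brightest members, the adenylyl cyclase gene Adcy7, the kinase subunit gene Prkar1a and the transcription factor gene Crem, had differences of -0.22, 0.27 and 0.25.

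**Figure D3:**
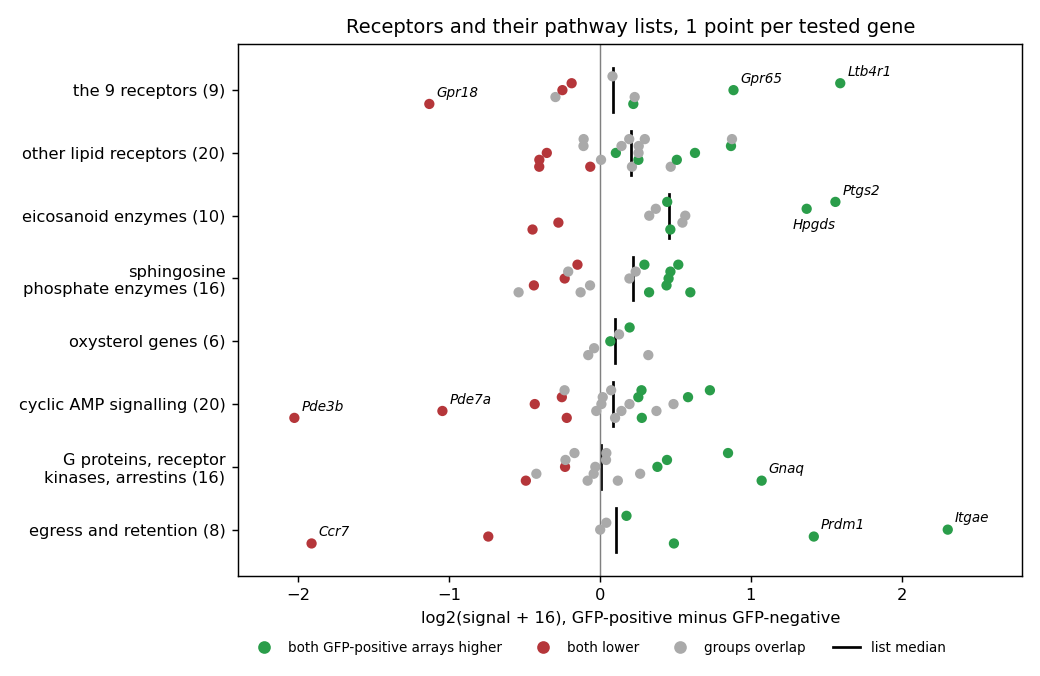
Difference between GFP-positive and GFP-negative cells (log2(signal + 16), horizontal axis) of each tested gene of the receptor set and of the 7 pathway lists with tested members, with the number tested in parentheses. Colours give whether the arrays of the groups overlapped and black bars are list medians. Most lists spread around 0, with Hpgds and Ptgs2 at the high end of the eicosanoid genes and Pde3b and Pde7a at the low end of the cyclic AMP genes.

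Among 16 tested G protein subunits, receptor kinases and arrestins none was called, 4 were higher and 2 lower without overlap (28.7% and 18.7% of all genes), and the median was 0.00. Under median scaling 2 were higher and 8 lower (13.2% and 40.2% of all genes) and the median was -0.31. Gnaq, the alpha subunit that couples receptors to phospholipase C, gave signals of 331 and 279 in GFP-negative cells, against 719 and 598 in GFP-positive cells. The groups were clearly separate, and the log2 difference was 1.07 (0.51 to 1.64, adjusted p = 0.187), with 5 other probe sets between 0.28 and 0.83, of which 2 had overlapping groups. The brightest members were Gna13, Gnb1 and Gnb4. Their differences were -0.03, -0.17 and 0.85 (0.10 to 1.60 for Gnb4, adjusted p = 0.314). The Gnb4 difference was 0.57 without GFP-positive replicate 2. Gna13, the subunit that confines lymphocytes to follicles, and the beta subunit gene Gnb1 had overlapping groups.

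Genes of egress and tissue retention that act beside the sphingosine phosphate receptors were set next to S1pr1. Of 8 tested, none was called, 4 were higher and 2 lower without overlap (28.7% and 18.7% of all genes), and the median was 0.11. Under median scaling 2 were higher and 3 lower (13.2% and 40.2% of all genes) and the median was -0.20, as over all tested genes. Cd69, whose product pulls the S1pr1 receptor from the surface, gave signals of 4402 and 5202 in GFP-negative cells, against 4787 and 4788 in GFP-positive cells. The GFP-positive values lay between the GFP-negative ones, and the log2 difference was 0.00 (-0.53 to 0.53). Klf2, the factor that drives S1pr1 transcription, was chosen after its values were seen and differed by 0.04 (-0.55 to 0.63). The adhesion receptor gene Itgae, the transcription factor gene Prdm1 and the lymph node homing receptor gene Ccr7 differed by at least 2-fold without overlap, at 2.30, 1.42 and -1.91 (adjusted p = 0.0942, 0.164 and 0.151). The bright members Il7r and Klf3 differed by 0.18 and -0.74.

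**Figure D4:**
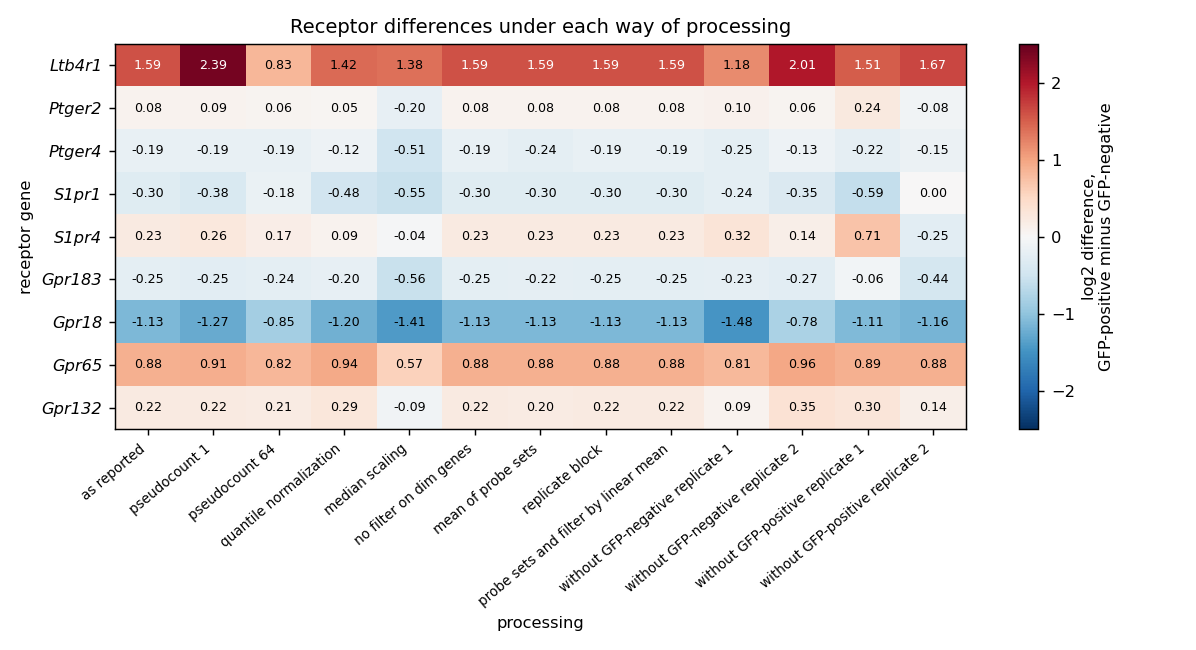
Log2 difference of each receptor gene (rows) under the processing as reported and 12 alternatives (columns), with colour and printed value giving GFP-positive minus GFP-negative. Ltb4r1 and Gpr65 stay positive and Gpr18 negative in every column, while Ptger2, S1pr1, S1pr4 and Gpr132 change sign in at least 1 column. For Ltb4r1 and Gpr65 only the columns of quantile normalization and median scaling could have changed the sign. For Gpr18 only the column of quantile normalization could have.

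The receptors fell into those whose direction held in all 12 alternatives and those whose direction did not. Ltb4r1, Gpr65 and Gpr18 each have a single probe set and groups without overlap. For Ltb4r1 and Gpr65 only quantile normalization and median scaling could have changed the direction. Median scaling lowers every GFP-positive signal relative to the GFP-negative ones, so for Gpr18 only quantile normalization could have changed it. The other alternatives are no check of the direction of these genes. The difference of Ltb4r1 ran from 0.83 to 2.39, that of Gpr65 from 0.57 to 0.96 and that of Gpr18 from -1.48 to -0.78. Ptger4 and Gpr183 also stayed negative, from -0.51 to -0.12 and from -0.56 to -0.06. Their groups do not overlap either, and each has 2 probe sets. Only quantile normalization (-0.12 and -0.20) and the mean of probe sets (-0.24 and -0.22) could have changed their direction. The lowest adjusted p of any receptor in any alternative was 0.0539, for Gpr65 with a pseudocount of 64, so none was called.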

How the data were processed

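Biotin-labelled RNA of 2 GFP-negative and 2 GFP-positive sorted samples was read on Affymetrix arrays, per the labels. The authors deposited 1 linear intensity per probe set, and arrays share a trimmed mean (150.0 on each after removing 2% at each end). Their median signals differed by group, at 37.0 and 36.1 on the GFP-negative arrays, against 46.0 and 45.2 on the GFP-positive arrays. The software that made them is not given in the sources used here. Here 16 was added before taking log2. A gene was its single-symbol probe set of highest mean log2 value. A floor at percentile 40 of the mean over probe sets other than controls (equal to 27.3) was set, and genes above it were tested across all genes with limma 3.58.1 in R 4.3.3 (lmFit and eBayes, group as the only term, two-sided, Benjamini-Hochberg), with 2 residual and 3.74 prior degrees of freedom. The fit was tested on simulated data. The number of arrays limits precision.

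Members and lists were chosen with earlier results of these data known. Named genes were the receptors, Gpr15, list members with at least 2-fold differences without overlap, the 3 brightest of each list and the brightest markers. Cd3e, Cd4 and the sex-linked genes were named as checks, Ubac2 for its position and the acid sensors and mast cell genes as whole groups. Others are said to have been chosen after their values were seen. Listed genes without a single-symbol probe set are not analysed here. Alternatives changed the pseudocount, scaling, dim filter, probe set choice, replicate term and arrays.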

Additional observations from a re-analysis of the deposited data

How the results depend on the processing

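Of 12 alternatives, 11 were planned and 1 (probe set and dim filter chosen on the linear mean) was added after seeing the data. The count of called genes was 4 as reported, 175 with a pseudocount of 64, 8 with the mean of probe sets, and 0 with a pseudocount of 1, quantile normalization, median scaling, no dim filter, the linear mean and without any 1 array (range 0 to 0). At an unadjusted p under 0.05 limma then gave 1211 to 2188 genes, next to 1783 as reported. With the replicate block 0 genes were called and 2128 had an unadjusted p under 0.05; Ltb4r1, Gpr65 and Gpr18 then had adjusted p of 0.153, 0.176 and 0.169, and no receptor call differed. Deviations of same-numbered arrays correlated at 0.198, and with 2 pairs and no label on shared animals the numbers were not treated as pairs. By Xist and Eif2s3y same-numbered samples were alike in sex, so the spread within each group as reported includes that between the sexes. Under median scaling 5 receptors were lower without overlap (40.2% of all genes) and 2 higher (13.2%). Without 1 array 3 to 5 were lower (30.3% to 31.6% of all genes) and 3 to 5 higher (42.3% to 43.5%), as a lone array separates more easily. Median scaling turned Ptger2 to -0.20, S1pr4 to -0.037, Gpr132 to -0.093, Cd69 to -0.32 and Klf2 to -0.26. Quantile normalization turned Cd4 to 0.051, and the mean of probe sets turned Pde8a to -0.084. Without 1 array, Ptger2 ran from -0.079 to 0.24 and S1pr4 from -0.25 to 0.71, both lowest without GFP-positive replicate 2. S1pr1 ran from -0.59 to 0.0017 (the latter without that array), Cd69 from -0.12 to 0.12, Klf2 from -0.11 to 0.20 and Cd4 from -0.12 to 0.096. With a pseudocount of 64 Hpgds, Pde3b, Pde7a, Gnaq, Itgae, Prdm1, Ccr7 and Gpr15 were called. Fits without 1 array leave a group with a lone array, assumed to vary like the other group. The causes of these changes were not tested.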
